A study of Mus musculus with 2 samples.

Results

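Zbp1, Ifih1, Ddx58, Mavs, Tlr3, Eif2ak2, Adar and Tmem173 are 8 mouse genes through which cells detect nucleic acids or pass on that signal. All 8 were taken by name from the 18309 genes listed across a pair of single-cell RNA-seq tables, with earlier results of these data known. One table came from tumor endothelial cells of E0771 mammary tumors, which grow from an implanted mouse mammary cancer line, and the other from endothelial cells of normal mammary glands. Both were sorted as live cells with CD31 and without CD45 on their surface, from tissue pooled across animals. The labels give the strain C57BL/6 and an age of 6 to 8 weeks for the normal library and neither for the tumor library, and some labels of the normal library also carry the words E0771 mammary and TECs, while its title and the design text call it normal. No treatment or genotype is given in the labels of either library.

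Cells with 200 or more detected genes, under 10% of their unique molecular identifiers (UMIs, counts of single captured transcripts) from mitochondrial genes and no UMI of the leukocyte gene Ptprc were kept. A cell was called endothelial when its UMIs of Cdh5 plus Pecam1, 2 junction genes of vessel cells, were at least 1 and exceeded those of Rhox5, Hmga2 and Krt8 together. A cell of the tumor table was called cancer-like when the latter sum was 3 or more and higher. This gave 262 tumor endothelial cells (TECs) and 185 cancer-like cells of 704 barcodes, and 5409 normal endothelial cells (NECs) of 9047 barcodes. The 3 populations held 4656888, 11908383 and 20145494 UMIs, and the median cell held 16950, 62538 and 3071 UMIs, so depth per cell differed between them. There was 1 library per condition, so no difference between TECs and NECs could be tested, and library and condition cannot be told apart. All intervals are 95% intervals for counting error only.

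The 11 endothelial markers summed to 8324 counts per 1000000 UMIs (CPM) in TECs, 9783 CPM in NECs and 72.8 CPM in cancer-like cells. Among other lineages, 10 immune markers summed to 21.7, 21.5 and 17.6 CPM in TECs, cancer-like cells and NECs. At least 1 immune marker UMI was found in 21.8%, 47.0% and 3.85% of these cells, which differ in depth. Csf1r, Cd3e and Itgax were at 0 in TECs and the other 7 were not. Csf1r and Cd3e were also at 0 in cancer-like cells, and Itgax in NECs. Mural markers (7 genes) stood at 36.3 CPM in TECs, 176 in cancer-like cells and 834 in NECs. Epithelial markers (5 genes, 3 of them listed in the tumor table) were at 0 in TECs, at 1.51 CPM in cancer-like cells and at 136 CPM in NECs, and 5 fibroblast markers were at 5.80, 245 and 105 CPM. The 2 tables shared 3 barcode sequences, of which 1 was in the populations of both.

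Cells carry several receptors that tell foreign or misplaced nucleic acids from their own. Zbp1 binds nucleic acids in the left-handed Z form and can start necroptosis through the kinase Ripk3 and its substrate Mlkl. Ifih1 (MDA5) and Ddx58 (RIG-I) are helicases that bind double-stranded RNA in the cytosol and signal through the mitochondrial adaptor Mavs, whereas Tlr3 reads double-stranded RNA in endosomes. Eif2ak2 (PKR) halts translation when it binds double-stranded RNA, Adar edits adenosines in such RNA and thereby keeps self RNA from being sensed, and Tmem173 (STING) acts downstream of DNA sensing by the enzyme Mb21d1 (cGAS). Most of these genes are themselves raised by interferons, and endothelium is a well known responder to interferon.

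The interferon-stimulated response element, through which interferons raise transcription, is shown first because 3 of the members carry its letters. RefSeq start-site windows of the build GRCm38.p6, reaching from 250 bases before to 50 bases after a gene's start, were found for 6 of the 8 genes (Ifih1, Ddx58, Mavs, Tlr3, Eif2ak2 and Adar, in 8 windows). The letters GAAANNGAAA, or TTTCNNTTTC on the other strand, occurred in the windows of Ifih1, Ddx58 and Eif2ak2 and in 3.44% of all 32851 windows. They are in capitals in the 30 bases below, each read 5′ to 3′ on the gene's own strand, which is the minus strand for all 3 genes.
Ifih1, chr2:62646206-62646235: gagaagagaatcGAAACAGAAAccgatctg
Ddx58, chr4:40239804-40239833: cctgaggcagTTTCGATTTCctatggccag
Eif2ak2, chr17:78882535-78882564: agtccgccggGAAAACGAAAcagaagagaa
In all 3 the match lay downstream of the annotated start, at bases 33 to 42 of Ifih1, 3 to 12 of Ddx58 and 19 to 28 of Eif2ak2, counted from 1 at the start site. The shorter palindromic letters TTCNNNGAA, an interferon gamma response motif, were in windows of Eif2ak2 and Adar and in 8.30% of all windows, and the NF-kB motif was in the window of Tlr3 and in 8.46% of all windows. In Eif2ak2 the 2 motifs did not overlap, and a match is a description of letters, not a bound site.

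Zbp1 (chr2:173206612-173218923, minus strand, GRCm38) had by far the highest ratio of TECs over NECs among the members. It was counted 1601 times in TECs, 945 times in cancer-like cells and 257 times in NECs, which are levels of 344 CPM (327 to 361), 79.4 CPM (74.4 to 84.6) and 12.8 CPM (11.2 to 14.4). TECs were thus 26.9-fold above NECs (interval 23.6 to 30.9), the 58th highest ratio of 13400 genes with 10 or more UMIs in the 2 populations together. The signal was spread over cells and not held by a few of them. The median TEC held 4 Zbp1 UMIs and the highest 27, and 122 of 262 TECs held 5 or more. Of 5409 NECs, 1 held 5 or more. A Zbp1 UMI was found in 82.4% of TECs (77.3 to 86.8), 75.1% of cancer-like cells (68.3 to 81.2) and 3.62% of NECs (3.14 to 4.16). After each cell was thinned to 2000 UMIs, which left out 23 TECs, 1 cancer-like cell and 1249 NECs as too shallow, the shares were 45.2% (38.8 to 51.7), 17.4% (12.2 to 23.7) and 2.26% (1.83 to 2.76).

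**Figure D1:**
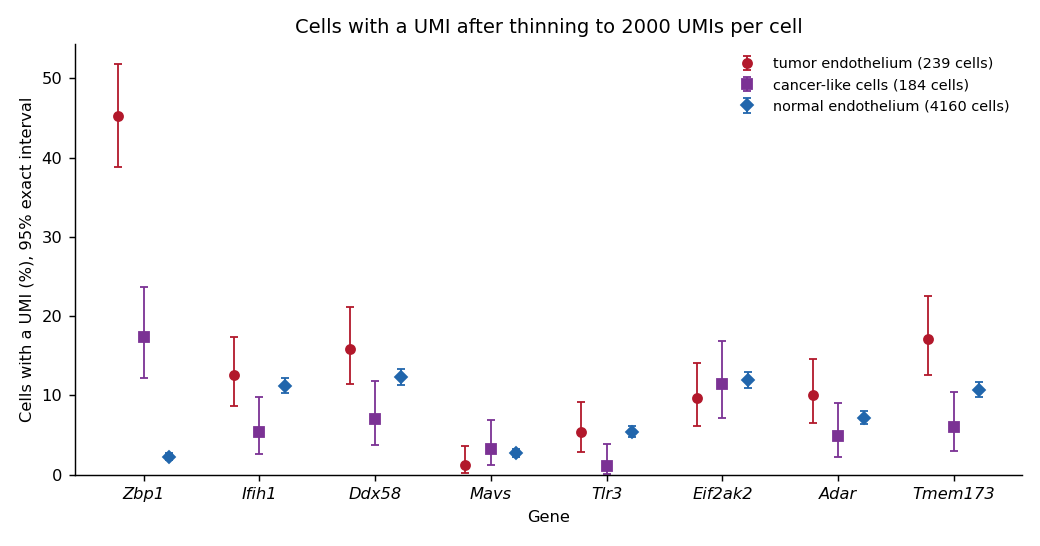
Percent of cells with at least 1 UMI of each gene (y axis) after thinning every cell to 2000 UMIs, in TECs (239 cells), cancer-like cells (184) and NECs (4160), with 95% exact binomial intervals. Zbp1 stands at 45.2% of TECs, 17.4% of cancer-like cells and 2.26% of NECs, while the other genes lie under 20% in every population.

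Cells outside the 3 populations give a reference within each library. In the tumor table, Zbp1 was at 75.6 CPM (51.4 to 107) in 9 cells with a Ptprc UMI and at 77.1 CPM (65.2 to 90.5) in 217 cells over the mitochondrial limit. The 28 tumor cells of neither kind held 8 Zbp1 UMIs, a level of 169 CPM (72.8 to 332). In the normal table, Zbp1 was at 56.6 CPM (35.0 to 86.5) in 51 cells with a Ptprc UMI, whose interval overlapped that of the same kind of cell in the tumor table. It was at 5.38 CPM in 887 normal cells that met the marker rule for cancer-like cells, at 8.34 CPM in 577 cells of neither kind and at 5.46 CPM in 1970 cells over the mitochondrial limit. The 887 cells had a Zbp1 UMI in 5.98% at a median of 11353 UMIs, while the shallower NECs had one in 3.62% but a higher level of 12.8 CPM. Arterial-like NECs, a class described further on, had a Zbp1 UMI in 7.29% at a median of 3519.5 UMIs, so the NEC signal was not the same in all cells. Cancer-like cells and these other groups of the tumor table were therefore above NECs as a whole in Zbp1, and TECs were highest. A subset of 39 cancer-like cells, described further on, was not above NECs as a whole, at 11.4 CPM (7.38 to 16.8). It was 2.44-fold (1.25 to 4.89) above the NECs with a like share of UMIs from interferon-stimulated genes. The part of the library in these Zbp1 levels was not tested. Without cells holding an Epcam, Myh11 or Cspg4 UMI, which removed 497 NECs and 1 TEC, the log2 ratio of Zbp1 was 4.70, against 4.75 with them.

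The helicases Ifih1 and Ddx58 and their adaptor Mavs did not share this difference. They lie at chr2:62595798-62646255 (Ifih1, minus strand), chr4:40203773-40239828 (Ddx58, minus strand) and chr2:131234063-131248025 (Mavs, plus strand). Ifih1 was at 66.8 CPM (59.6 to 74.6) in TECs and 61.8 CPM (58.4 to 65.3) in NECs, a ratio of 1.08 whose interval of 0.952 to 1.23 held 1. Ddx58 was at 77.7 CPM (69.9 to 86.2) in TECs and 67.1 CPM (63.5 to 70.7) in NECs, a ratio of 1.16 (1.03 to 1.30). Mavs was sparse, with 27 UMIs in TECs and 246 in NECs, and was 2.11-fold lower in TECs (1.41 to 3.26) at 5.80 CPM (3.82 to 8.44) against 12.2 CPM (10.7 to 13.8). Both helicases were lower in cancer-like cells, at 22.7 CPM (20.05 to 25.5) for Ifih1 and 33.6 CPM (30.4 to 37.0) for Ddx58. These levels were 2.95-fold (2.49 to 3.48) and 2.31-fold (2.00 to 2.67) under those of TECs in the same library. Mavs stood at 7.64 CPM (6.15 to 9.38) in cancer-like cells, which overlapped the interval of TECs. The lower Mavs level in TECs fell just under 2-fold, to a log2 ratio of -0.99, when mitochondrial and ribosomal UMIs were left out.

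Tlr3, the endosomal receptor (chr8:45395665-45411080, minus strand), was far lower in cancer-like cells than in either endothelium. It was at 29.4 CPM (24.7 to 34.8) in TECs and 24.6 CPM (22.5 to 26.9) in NECs, with a ratio of 1.19 (0.982 to 1.45). Cancer-like cells held 29 Tlr3 UMIs among 11908383, a level of 2.44 CPM (1.63 to 3.50), which was 12.1-fold lower than in TECs (8.05 to 18.7) and 4.99-fold lower after thinning, when 2 cancer-like cells held a UMI. Tlr3 UMIs were found in 14.1% of cancer-like cells, 34.4% of TECs and 8.41% of NECs before thinning, and in 1.09%, 5.44% and 5.41% after it. At least 1 of the 11 endothelial markers also gave a UMI in 82.7% of cancer-like cells, so low shares there can come from free RNA; the part of free RNA was not tested.

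Eif2ak2, the translation-halting kinase, and Adar, the editing enzyme, lay within 2-fold in all 3 comparisons as summed. When cells with a UMI of the other population's markers were left out, Eif2ak2 was 2.20-fold lower in cancer-like cells than in TECs, which made 6 members lower there by 2-fold or more. Eif2ak2 was at 79.2 CPM (71.4 to 87.7) in TECs, 42.7 CPM (39.0 to 46.5) in cancer-like cells and 69.0 CPM (65.5 to 72.8) in NECs. TECs were 1.15-fold above NECs (1.02 to 1.29), and cancer-like cells were 1.86-fold below TECs (1.62 to 2.13). Adar was at 32.2 CPM (27.3 to 37.8) in TECs, 26.2 CPM (23.4 to 29.3) in cancer-like cells and 34.9 CPM (32.4 to 37.6) in NECs, and the interval of its TEC to NEC ratio, 0.769 to 1.10, held 1. After thinning, Eif2ak2 UMIs were found in 9.62% of TECs, 11.4% of cancer-like cells and 11.9% of NECs, with overlapping intervals, and the ratio of cancer-like cells to TECs was 1.01-fold lower. Thinning also turned the log2 ratio of TECs over NECs from 0.20 to -0.20 for Eif2ak2 and from -0.12 to 0.54 for Adar.

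Tmem173, the adaptor of DNA sensing, was higher in TECs than in NECs. Its level was 98.3 CPM (89.5 to 108) in TECs and 65.3 CPM (61.8 to 68.9) in NECs, a ratio of 1.51 (1.35 to 1.68) that stayed under 2-fold. Cancer-like cells had 30.0 CPM (26.9 to 33.3), which was 3.28-fold under TECs (2.85 to 3.78). At 2000 UMIs per cell, 17.2% of TECs, 5.98% of cancer-like cells and 10.7% of NECs held a Tmem173 UMI.

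**Figure D2:**
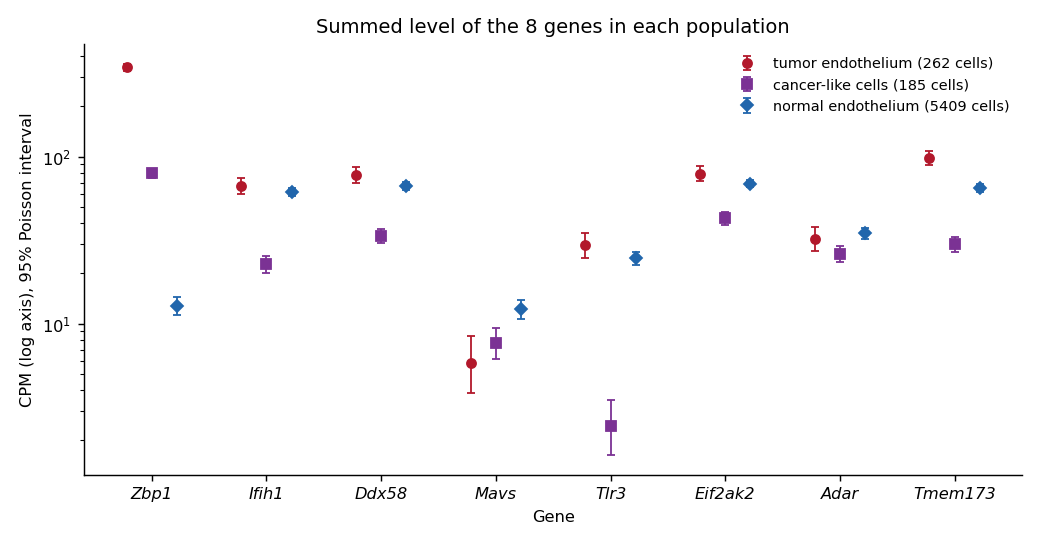
Level of each gene in CPM (log y axis) summed over TECs (262 cells), cancer-like cells (185) and NECs (5409), with 95% Poisson intervals. Zbp1 falls from 344 to 79.4 to 12.8 CPM in that order, whereas Ifih1, Ddx58, Tlr3, Eif2ak2 and Tmem173 are lowest in cancer-like cells. Adar is lowest there too, with an interval that overlaps that of TECs.

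Counted over the 8 members, 1 (Zbp1) was 2-fold or more higher in TECs than NECs, 1 (Mavs) was 2-fold or more lower and 6 lay within 2-fold. Of all 13400 genes tested in that comparison, 10.6% were 2-fold or more higher and 27.4% lower, so neither count stands out from the background. The median log2 ratio was 0.21 over the members and -0.28 over all tested genes. Between cancer-like cells and TECs, 0 members were 2-fold or more higher and 5 were lower (Tlr3, Zbp1, Tmem173, Ifih1 and Ddx58), against 20.4% higher and 22.4% lower of 12255 genes. There the median log2 ratio was -1.38 over the members and 0.05 over all genes tested. Between cancer-like cells and NECs, Zbp1 was 6.22-fold higher (5.41 to 7.17), while Tlr3, Ifih1 and Tmem173 were 10.1-fold, 2.72-fold and 2.18-fold lower. After thinning, Tlr3 was 5.17-fold lower and Zbp1 8.06-fold higher. That is 1 member higher and 3 lower, beside 20.9% higher and 36.8% lower of 13789 genes. Ddx58 lay just under the 2-fold limit there, at 1.9965-fold lower (1.78 to 2.24). The last comparison shares its samples with the first 2 and is not independent of them.

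**Figure D3:**
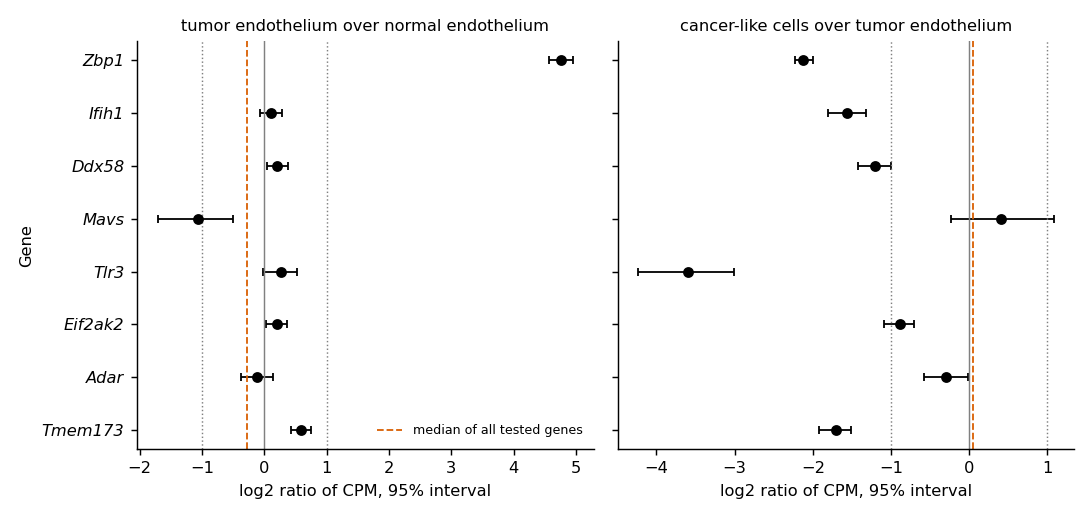
Log2 ratio of CPM (x axis) for each gene in TECs over NECs (left) and cancer-like cells over TECs (right), with 95% intervals; dotted lines mark 2-fold and the dashed line the median of all tested genes (-0.28 and 0.05). On the left Zbp1 lies at 4.75 and Mavs at -1.07, and on the right Tlr3 lies at -3.59.

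The genes around these sensors gave a mixed picture between TECs and NECs. The counts of each list below stand beside 10.6% of all tested genes 2-fold or more higher in TECs and 27.4% lower. Of 16 tested other sensors and antiviral effectors, 9 were 2-fold or more higher in TECs and 1 was lower, and the median log2 ratio was 1.44. Those named by level were Ifi204, a DNA-binding sensor, at 226 against 48.2 CPM (4.69-fold higher in TECs), Oasl2, an oligoadenylate synthetase-like protein, at 173 against 61.0 CPM (2.83-fold), and Dhx36 and Zc3hav1, RNA-binding antiviral proteins, with log2 ratios of -0.63 and -0.04. The single lower gene was Mb21d1, the DNA sensor upstream of Tmem173, at 9.66 CPM in TECs and 20.1 CPM in NECs, and it is named here after its value was seen. Of 15 adaptors, kinases and factors, 3 were higher and 0 lower (median log2 ratio -0.20). They were Irf7, the interferon-inducing transcription factor, at 626 against 127 CPM, and Irf5 and Rnf135, named after their values were seen. Trim25, which ubiquitinates Ddx58, was lower at 68.7 against 118 CPM, within 2-fold. Azi2 and Unc93b1, also named by level, had log2 ratios of -0.20 and 0.74.

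Among the 6 cell death partners of Zbp1, Ripk3 was 5.03-fold higher in TECs (103 against 20.5 CPM) and Mlkl 4.07-fold higher (64.6 against 15.9 CPM), while Ripk1 was 2.33-fold lower (48.1 against 112 CPM). Casp8, which restrains necroptosis, stood at 162 against 90.9 CPM. In cancer-like cells, 5 of the 6 were 2-fold or more below TECs, beside 22.4% of all tested genes. Mlkl was not, at 79.7 CPM. Of 9 nucleases and other brakes on sensing, 0 were higher in TECs and 3 lower (Adarb1, Dnase2a and Enpp1, named after their values were seen); Samhd1, which degrades the building blocks of DNA, was at 117 against 157 CPM. Of 10 genes of the eIF2 alpha kinase arm, 1 was higher in TECs (Eif2s1, 175 against 65.6 CPM) and 2 were lower. These were Ppp1r15a at 81.6 against 337 CPM and Ddit3, which was named after its value was seen. For the brakes and the eIF2 alpha arm, the counts of lower genes do not stand out from the 27.4% of all tested genes.

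Interferon-stimulated genes other than the members were higher in TECs for 8 of 16 tested, with 0 lower and a median log2 ratio of 1.00. Over all tested genes, 10.6% were higher and 27.4% lower. Bst2, a virion tether, was at 2887 CPM in TECs and 855 CPM in NECs, Isg15, a ubiquitin-like modifier, at 1419 and 543 CPM, and Rsad2, an antiviral enzyme, at 561 and 334 CPM. In cancer-like cells 14 of the 16 were 2-fold or more below TECs (median log2 ratio -2.10), beside 22.4% of all tested genes. The 4 tested interferon receptor genes were also 2-fold or more lower in cancer-like cells, with Ifnar1 at 13.9 against 60.6 CPM and Ifnar2 at 24.9 against 120 CPM. Between TECs and NECs 1 of these 4, Ifngr2, was 2-fold or more higher (113 against 35.0 CPM). The interferon genes themselves were not among the genes tested.

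Because most of these genes are known to respond to interferon, cells were next set side by side at like shares of UMIs from the 16 interferon-stimulated genes. These ranges cut a continuous per-cell share and are not cell types; they were chosen after the data had been seen. The ranges of 0.1 to 0.3%, 0.3 to 1% and 1% or more held 46, 165 and 49 TECs and 2267, 1949 and 225 NECs. Zbp1 was higher in each successive range in both libraries, from 103 CPM (80.8 to 129) to 351 and 537 CPM (488 to 590) in TECs and from 6.71 to 20.5 and 54.0 CPM (37.6 to 75.04) in NECs. The TECs in the lowest of these ranges were above the NECs in the highest in Zbp1. At matched ranges TECs were 15.3-fold (10.7 to 21.8), 17.1-fold (14.4 to 20.5) and 9.96-fold (7.05 to 14.5) above NECs in Zbp1. The match was not exact within ranges. The 16 genes summed to 2128, 5795 and 16900 CPM in TECs and to 1872, 4997 and 13661 CPM in NECs. The part of interferon in the Zbp1 difference was not tested and cannot be told apart from that of the library.

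Ifih1 behaved otherwise at matched ranges. It was at 19.2 CPM in TECs and 44.0 CPM in NECs in the lowest of the 3 ranges, at 50.4 and 88.4 CPM in the middle one and at 174 and 185 CPM in the highest. TECs were thus 2.29-fold and 1.76-fold below NECs in the lower 2 ranges, with both intervals under 1, and the interval of the highest range held 1. Eif2ak2 was lower in TECs in the middle range alone (1.45-fold, 64.5 against 93.7 CPM), and Ddx58 was lower in the lowest range (1.62-fold) and by 1.17-fold in the middle range. Tmem173 stayed near 100 CPM in TECs in all 3 ranges (99.9, 97.2 and 102 CPM) and was above NECs in each of them, by 1.63-fold, by 1.30-fold and, in the highest range, by 0.58 on the log2 scale (0.04 to 1.15). Adar was lower in TECs in the middle range (1.60-fold), and its intervals held 1 in the other ranges. Mavs was 9.48-fold lower in TECs in the lowest range, from 1 UMI in TECs, and 1.65-fold lower in the middle one. Both of these Mavs intervals were under 1, and that of the highest range held 1. Tlr3 lay at 26.0, 20.5 and 67.0 CPM in TECs and at 23.8, 24.2 and 49.3 CPM in NECs, and the interval of its ratio held 1 in each range. The split first planned was at each library's own median and upper quartile of the share. There Ifih1 of TECs over NECs was 0.740 (0.560 to 0.963), 1.14 (0.885 to 1.46) and 1.24 (1.04 to 1.48), and Zbp1 was 46.3, 26.3 and 19.1. Above the upper quartile Tlr3 was 2.33 (1.70 to 3.16), with the 16 genes at 14824 CPM in TECs and 7175 CPM in NECs.

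Between cancer-like cells and TECs, Tlr3, Tmem173 and Zbp1 were lower in cancer-like cells in both ranges that could be matched. In the range of 0.1 to 0.3%, with 109 cancer-like cells, Tlr3 was 10.2-fold lower and Tmem173 3.45-fold lower in cancer-like cells, and in the range of 0.3 to 1%, with 37 of them, they were 5.15-fold and 2.28-fold lower. The intervals of Ifih1, Eif2ak2 and Mavs held 1 in both ranges, as did those of Ddx58 and Adar in the lower one. In the range of 0.3 to 1%, Ddx58 was 1.35-fold lower in cancer-like cells, and Adar was 1.70-fold higher (1.25 to 2.31), opposite in direction to its ratio over all cells. From 2000 UMIs drawn per cell, the median Adar ratio in that range was 1.38. Zbp1 was 1.42-fold and 2.08-fold lower. Under 0.1%, where only 2 TECs lay, the 39 cancer-like cells held Zbp1 at 11.4 CPM (7.38 to 16.8). NECs of that range were at 4.67 CPM (2.67 to 7.59), and all NECs at 12.8 CPM. The cancer-like cells were thus 2.44-fold (1.25 to 4.89) above NECs of the same range. From 2000 UMIs drawn per cell, cancer-like cells under 0.1% were at 31.3 CPM and NECs at 4.40 CPM, with a median ratio of 7.28. The share is noisier in shallow cells, so it was also read from 2000 UMIs drawn per cell, 100 times. The median Zbp1 ratio of TECs over NECs was then 21.4, 17.6 and 10.2, that of Ifih1 was 0.501, 0.614 and 0.963, and Zbp1 in cancer-like cells was 2.32-fold and 2.48-fold below TECs. The first of these 2 values is over 1.5 times the 1.42-fold found from all UMIs.

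**Figure D4:**
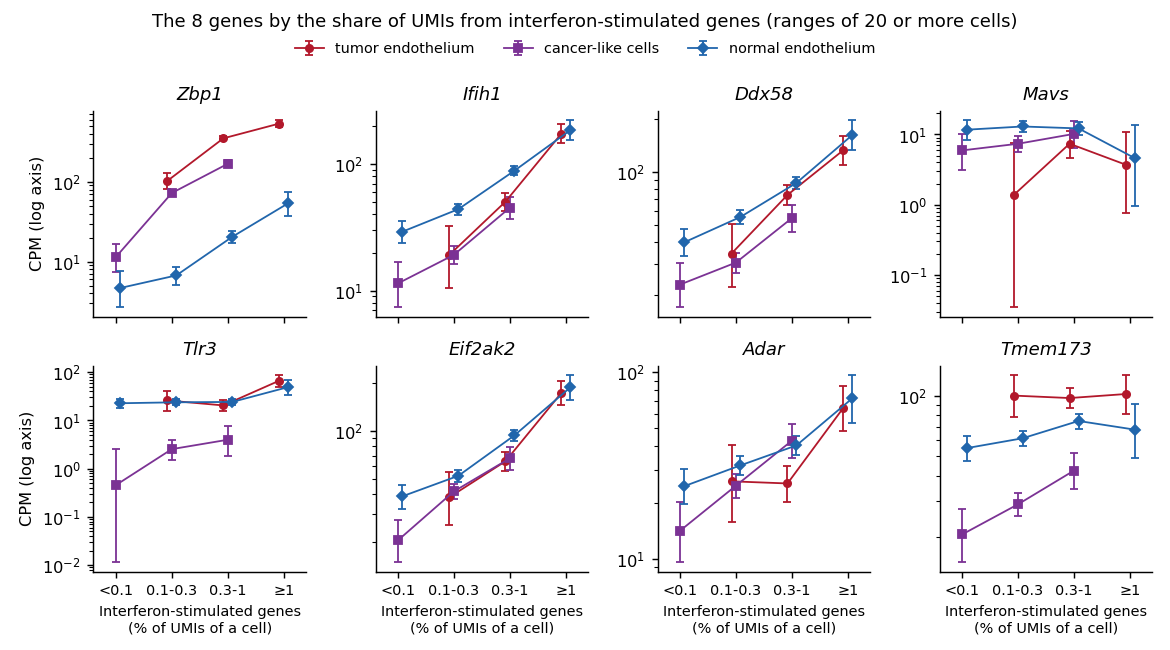
Level of each gene in CPM (log y axis) by the percent of a cell's UMIs from 16 interferon-stimulated genes (x axis), for ranges of 20 or more cells in TECs, cancer-like cells and NECs, with 95% Poisson intervals. Zbp1 lines for the populations run apart from 0.1% upward, Ifih1 of NECs lies above that of TECs in the lower 2 shared ranges, and Tlr3 of cancer-like cells lies below both endothelial lines.

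Vessel classes were assigned from the detected markers of each class, and those with 50 or more cells were compared within their library. In NECs these were 480 arterial-like, 398 venous-like, 3514 capillary-like and 942 unassigned cells. Zbp1 in NECs was 7.64 CPM (4.37 to 12.4) in venous-like, 10.5 CPM (8.73 to 12.5) in capillary-like, 15.4 CPM (11.6 to 19.9) in unassigned and 23.5 CPM (17.3 to 31.3) in arterial-like cells, and no neighbours in that order had separate intervals. Ifih1 followed the same order, from 36.8 CPM (29.0 to 46.0) in venous-like to 77.6 CPM (65.9 to 90.9) in arterial-like cells. Tmem173 ran the other way, at 93.6 CPM (81.0 to 108) in venous-like and 38.1 CPM (30.0 to 47.6) in arterial-like cells. Ddx58 and Eif2ak2 differed by 1.13-fold and 1.08-fold between their highest and lowest class. The 16 interferon-stimulated genes summed to 1812 CPM in venous-like, 2782 CPM in arterial-like and 3546 CPM in capillary-like cells.

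In TECs 101 tip-like and 63 mitotic cells reached that number. Zbp1 was at 393 CPM (362 to 425) in tip-like and 283 CPM (258 to 309) in mitotic cells, Ifih1 at 75.3 and 42.2 CPM and Ddx58 at 98.3 and 59.4 CPM, each with separate intervals. Tmem173 was at 92.6 and 96.5 CPM, and its intervals overlapped. The interferon-stimulated genes summed to 8858 and 5408 CPM in these classes. The smaller TEC classes of 13 to 42 cells had Zbp1 between 339 and 410 CPM, all above every NEC class of 50 or more cells. No class reached 50 cells in both libraries.

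**Figure D5:**
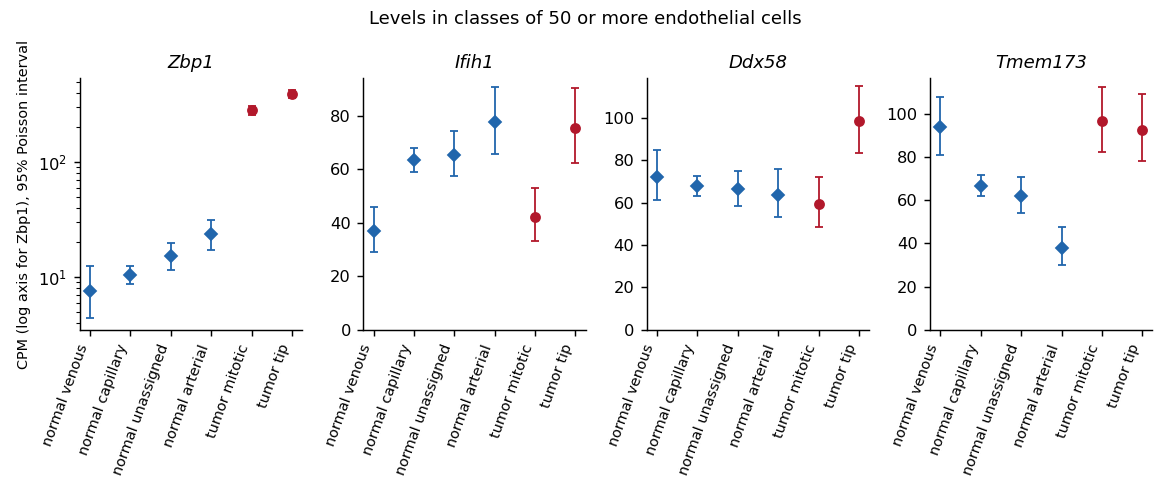
Level in CPM (y axis, log for Zbp1) of Zbp1, Ifih1, Ddx58 and Tmem173 in classes of 50 or more endothelial cells, normal ones as diamonds and tumor ones as circles, with 95% Poisson intervals. Zbp1 lies between 7.64 and 23.5 CPM in the 4 normal classes and at 283 and 393 CPM in the tumor classes, and Tmem173 falls from venous-like to arterial-like normal cells.

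Likeness of pattern was measured as Pearson's r of log2(CPM + 1) over 7 groups of cells, the 4 normal and 2 tumor classes and the cancer-like cells, for 8201 genes. The points share libraries and depth, so r is given as a description. For Ifih1 the 5 highest were Myo1e (0.990), Fes, Plekha1, Stat2 and Rab6a, and for Ddx58 they were Gbp6 (0.982), Tbc1d9b, Il15, Znfx1 and Trim30d. Ddx58 and Ifih1 had an r of 0.776 with each other, and Zbp1 had -0.05 with Ifih1 and 0.04 with Ddx58.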

How the data were processed

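Single cells sorted from E0771 tumors and from normal mammary glands were sequenced, and the authors deposited 1 table of UMI counts per library, with whole-number counts per gene and barcode and no normalization. The submitters' processing notes name Cell Ranger, Seurat and mm10. Versions and the annotation are not given in the sources used here. From these counts, cells were chosen by the marker rule given in the report and UMIs were summed per population. Levels are CPM of all UMIs with Poisson intervals, ratios carry exact binomial intervals and shares carry Clopper-Pearson intervals, at 95%. Genes with 10 or more UMIs in both populations together were counted in the background. Depth was 510 to 183550 UMIs per barcode in the tumor table and 500 to 327449 in the normal table. With 1 library per condition no test was made and no doublet caller was run; leaving out the deepest 5% of cells was an alternative, beside other cell limits, scalings and thinning. A vessel class needed 2 or more detected markers and more than any other class, and mitotic cells 3 or more of 7 mitotic markers. All 8 members are named, and of each list up to 4 genes with the highest summed CPM. Some further genes of the lists are named and marked as named after their values were seen. The genes most like Zbp1 in pattern are not reported here. Members, lists and ranges were chosen with earlier results of these data known. Ratio intervals were tested on counts simulated with Poisson counting error alone. That test cannot speak to variation between cells or libraries. Python 3.11.15, numpy 2.4.6, scipy 1.17.1 and pandas 2.3.3 were used.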

Additional observations from a re-analysis of the deposited data

How the results depend on the processing

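No paired analysis was possible because each condition has 1 library. Each of 24 member ratios was recomputed under 10 alternatives, and of the 240 values 200 stayed within the counting interval of the reported value, 40 moved outside it and 0 turned a 2-fold difference around. Zbp1 in TECs over NECs ranged from 4.70 to 4.97 on the log2 scale. For TECs over NECs, the count of members 2-fold or more higher was 2 at a limit of 1.5-fold, where Tmem173 joined Zbp1. The count lower was 0 rather than 1 without mitochondrial and ribosomal UMIs and after centring on the median of all genes. It was also 0 at the interval bound nearest to 1. Whether Mavs, with 27 UMIs in TECs, passed 2-fold thus depended on the scaling. Its log2 ratio lay between -1.19 and -0.85 under the 10 alternatives. For cancer-like cells over TECs, thinning to 2000 UMIs gave 1 member 2-fold or more higher, Mavs, from sparse counts. For cancer-like cells over NECs, 6 members were lower at 1.5-fold, against 3 at 2-fold. At 2-fold this count was 4 under some alternatives, where Ddx58 joined, and 2 under others, where Tmem173 dropped out. Other counts of members stayed within 1.5 times. Differences under 2-fold were less stable: thinning changed the sign of Tlr3, Eif2ak2 and Adar in TECs over NECs and of Mavs in cancer-like cells over NECs, and centring that of Adar in TECs over NECs. In cancer-like cells over TECs, Adar was 1.23-fold lower as reported and 2-fold lower after thinning, and Ddx58 was 1.93-fold lower by the mean CPM over cells. Vessel classes were not recomputed. Depth limits Mavs, with 27 UMIs in TECs, and Tlr3, with 29 in cancer-like cells.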
